A study of Mus musculus with 24 samples.

Results

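The heat shock proteins and chaperonins were followed through the differentiation of C2C12 cells, a mouse myoblast line that withdraws from the cell cycle and fuses into myotubes. Members were the probe sets annotated to a single gene whose symbol began with Hsp (but not Hspg), with Dnaj, or with Cct and a digit, or was Tcp1, Calr, Canx, Pdia3, Pdia4 or Pdia6. This took 87 of 12422 probe sets and covered 61 of the 8251 genes named alone by a probe set. They were sorted by symbol into 6 probe sets of small heat shock proteins (4 genes), 37 of the Hsp40 or J-domain family (27 genes), 3 of the mitochondrial Hsp60 and its partner (2 genes), 14 of the Hsp70 family (10 genes), 2 of Hsp90 (1 gene), 14 of the cytosolic chaperonin (9 genes) and 10 of the endoplasmic reticulum (7 genes), with Hspbp1 left over. The rule uses names and no measured values, but it was written with earlier results of these data known.

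Total RNA was hybridised to 24 Affymetrix MG_U74Av2 arrays, 3 for each of 8 days. On days -2 and -1 the cells were still proliferating, on day 0 they were confluent and differentiating medium was added, and on days 2, 4, 6, 8 and 10 they had been in that medium for the stated number of days. The cells carried no transgene or treatment other than the medium, as far as the labels say. The labels did not say whether arrays of a day came from separate cultures, so p-values measure the spread between these samples, which may be technical. Over the probe sets bright enough for a test, arrays of the same day correlated at a mean r of 0.958 and arrays of different days at 0.898.

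Molecular chaperones bind unfolded proteins and help them reach or keep their folded form. J-domain proteins bring clients to Hsp70 and stimulate its ATPase, exchange factors such as Hsph1 reset Hsp70, and Hsp90 receives clients from it. The cytosolic chaperonin, a ring built from Tcp1 and the Cct subunits, folds actin and tubulin, Hspd1 and Hspe1 form the corresponding chamber in mitochondria, and small heat shock proteins hold clients without ATP and associate with the cytoskeleton of muscle. In the endoplasmic reticulum Hspa5, Hsp90b1, the lectins Calr and Canx and the disulfide isomerases fold secreted and membrane proteins.

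Heat shock factors bind alternating GAA and TTC units, and the unfolded protein response of the endoplasmic reticulum acts through a CCAAT box at a fixed distance from CCACG. Both motifs were searched on both strands in the RefSeq promoters (GRCm38.p6, 250 bases before to 50 after a gene's start), which held 53 of the 61 member genes. The heat shock element, searched as GAA, TTC and GAA or as TTC, GAA and TTC with 2 bases of any kind between units, was in 0.603% of 32851 promoters and in those of 4 member genes, Hspd1, Hspe1, Dnajb6 and Hsph1, the last of these after the start. The endoplasmic reticulum stress element, CCAAT and CCACG with 9 bases of any kind between, was in 0.119% of all promoters and in those of 6 member genes, among them 5 of the 7 endoplasmic reticulum genes (Hspa5, Hsp90b1, Calr, Canx and Pdia6) and the J-domain gene Dnajc3. A related element, ATTGG and CCACG with 1 base between, was in 0.0365% of promoters and, among members, in that of Dnajb11, after the start. A match of letters is a description and shows no binding. Hspd1 and Hspe1 lie head to head on chromosome 1 with 215 bases between their starts, and both promoters held the same overlapping pair of matches. The windows below show, with 20 bases on each side and the match in capitals, the heat shock element shared by the mitochondrial pair, both lower on day 10 than on day -2, and the stress element of 5 genes of the reticulum, of which Hspa5 and 1 of 3 tested probe sets of Dnajc3 rose on day 0 relative to day -2, while Hsp90b1, Pdia6 and Canx were not called in that step. Letters are those of the gene's own strand.
Hspe1 (chr1:55088039-55088096, plus strand): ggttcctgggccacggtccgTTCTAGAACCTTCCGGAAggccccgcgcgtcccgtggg
Hspa5 (chr2:34772005-34772063, plus strand): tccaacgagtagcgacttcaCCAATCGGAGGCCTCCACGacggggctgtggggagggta
Hsp90b1 (chr10:86705513-86705571, minus strand): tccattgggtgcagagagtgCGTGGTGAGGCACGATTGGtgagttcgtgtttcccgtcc
Pdia6 (chr12:17266471-17266529, plus strand): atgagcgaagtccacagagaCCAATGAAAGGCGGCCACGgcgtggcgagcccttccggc
Canx (chr11:50325780-50325838, minus strand): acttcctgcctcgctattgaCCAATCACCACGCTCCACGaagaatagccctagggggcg
Dnajc3 (chr14:118937807-118937865, plus strand): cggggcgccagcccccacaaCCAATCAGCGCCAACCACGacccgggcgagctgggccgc

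Of the 87 probe sets, 78 (59 genes) reached the intensity required for a test, which was a daily mean above 277.7 on at least 1 day. The other 9 were 1 probe set each of Calr, Tcp1, Hsp90aa1, Cct6a, Dnajb3, Dnajb8, Dnajb13, Dnajc1 and Dnajc3, and Calr and Dnajb8 had no other. A floor of 77 was applied before taking logs. Calr ranged from 5.5 to 222.1 over the 24 arrays, on both sides of the floor, and its level could not be followed. Hsp90ab1, Hspb3 and Hspb7 were named alone by no probe set. Dnajb5 and 1 probe set of Hspb8 passed through days 2 to 10 alone, so a difference between days was built into their passing. Hspb1 passed through day 4 alone and the tested probe set of Dnajb3 through day 8 alone. One probe set each of Hspb2, Dnajb9 and Hspa2 was under the limit on day -2 alone.

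Of the 78 tested members, 55 (70.5%, 43 genes) differed among the 8 days in limma's moderated F test at an adjusted p under 0.05, where 55.1% of all 8484 tested probe sets did. For 26 of the 55 the highest daily mean was that of day -2. The range of daily means was at least 2-fold for 33 of the 55 and at least 4-fold for 7. By class, on day 10 relative to day -2, the small heat shock proteins Hspb2 and Hspb8 rose, while Hsp90aa1, Hspe1, 11 of 12 probe sets of the cytosolic chaperonin and 9 of 14 of the Hsp70 family fell. In the J-domain family 8 of 32 rose and 9 fell, and of 9 in the endoplasmic reticulum 1 fell. Of all tested probe sets, 22.2% rose and 22.3% fell over that span.

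**Figure D1:**
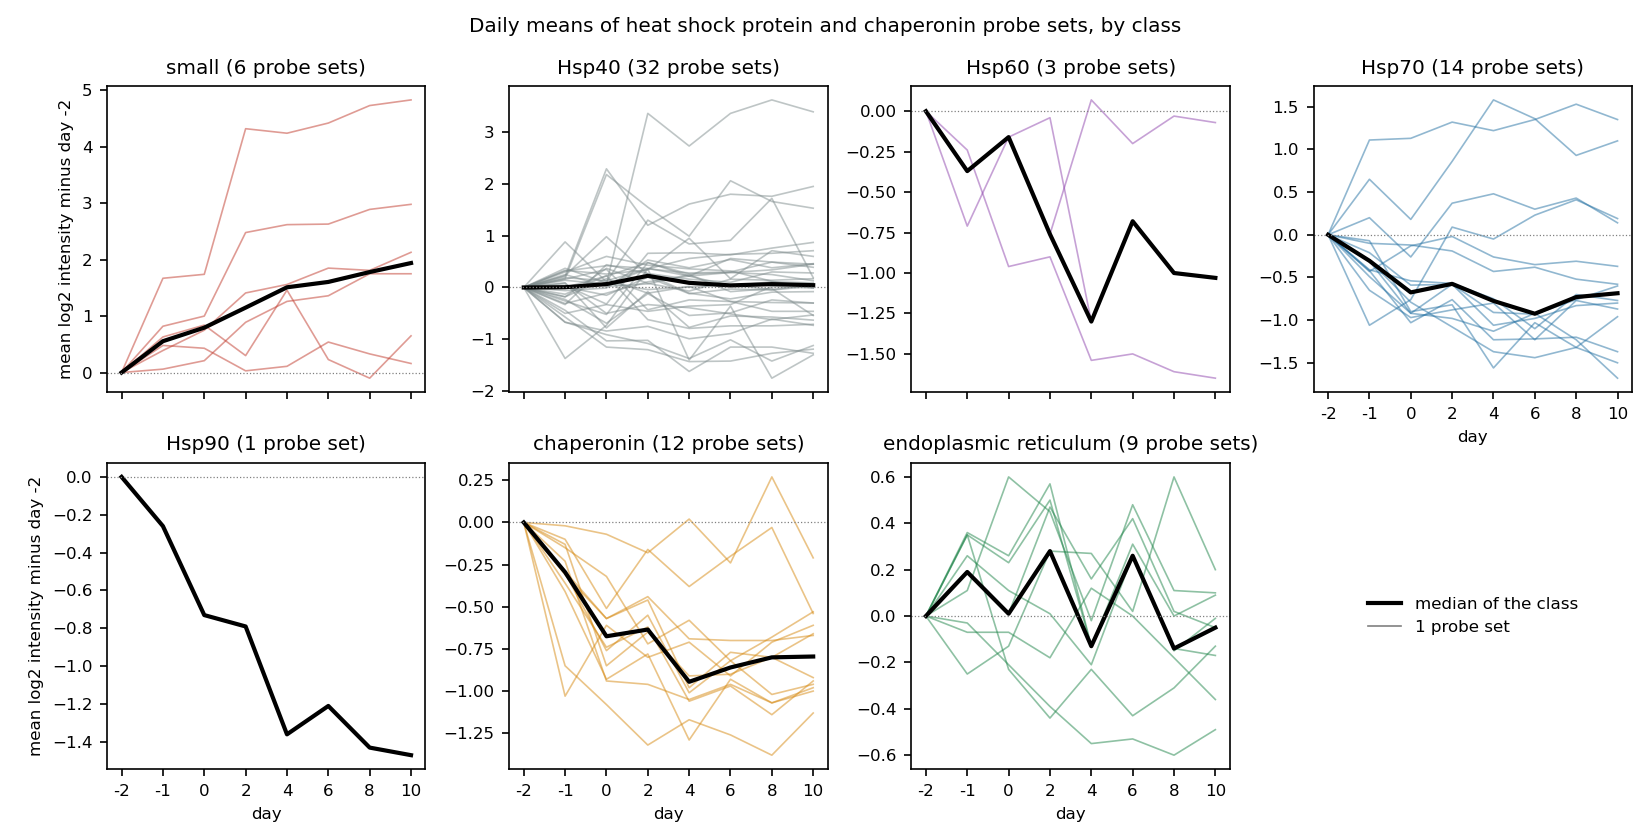
Daily mean log2 intensity minus that of day -2 (vertical axis) against the day of the course (horizontal axis) for each tested probe set except that of Hspbp1 (thin lines) and the median of its class (thick lines), 3 arrays a day. Vertical scales differ between panels; on day 10 the class medians stand at 1.94 for the small heat shock proteins, 0.05 for Hsp40, -1.03 for Hsp60 and its partner, -0.69 for Hsp70, -1.47 for Hsp90, -0.79 for the chaperonin and -0.05 for the endoplasmic reticulum.

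Day 0 against day -2 compared confluent cells, on the day the differentiating medium was added, with proliferating cells. Muscle markers such as Myog had already risen by day 0, as given below. Day -1 entered none of the comparisons below, so a change on day 0 may have come about while cells were still proliferating. Of the members, 8 rose (10.3%) and 27 fell (34.6%), against 16.5% and 16.1% of all tested probe sets. The median change of the members was -0.15 on the log2 scale and that of all tested probe sets 0.01. Day 2 against day 0, the first days in differentiating medium, had 10 members higher and 5 lower (12.8% and 6.41%), where the whole array had 11.2% and 10.4%. Day 10 against day 2 had 4 higher and 14 lower (5.13% and 17.9%, against 6.52% and 7.26% of all). Over the whole course, day 10 against day -2, 14 members rose (17.9%) and 33 fell (42.3%), while 22.2% and 22.3% of all tested probe sets did (44.6% in either direction). Counted once per gene, the figures for the whole course were 11 higher and 26 lower of 59.

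The arrays came from 5 chip lots and were scanned on 11 days, unevenly over the course. The largest chip lot, 10 arrays, held 1 array of day -2 and 1 of day 10, so fits within it take a lone array to vary like the others, and day 10 against day -2 is 1 array against 1. Members called on all arrays had changes of the same direction in it, which is a description, since its arrays are among those that made the calls. With scan day as a fixed factor in limma there were 10 calls on day 0 relative to day -2 (4 higher, 6 lower), 8 on day 2 relative to day 0, 3 on day 10 relative to day 2 and 39 on day 10 relative to day -2. That fit has 6 residual degrees of freedom, against 16 without the factor. No scan day held arrays of both day 0 and day -2, or of both day 10 and day 2, so for those steps scan day and group can be separated only through the other days. The count between day 10 and day 2 also rested on single arrays: it was 10 without day 2 replicate 1, 9 without day 2 replicate 2 and 10 without day 10 replicate 1. Fewer cells of a kind and less RNA per cell cannot be told apart in these bulk samples.

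All 7 markers of skeletal muscle used to check the label of the cells passed the filter. On day 10 relative to day -2, Myog, the differentiation factor of muscle, Acta1, Myh3, Ckm and Des rose, Myf5, a factor of myoblasts, fell (-1.81 ± 0.27, SE), and Myod1 was not called (0.21 ± 0.10, SE). Ckm passed the filter through days 2 to 10 alone and Myh3 through days 0 to 10 alone, so a difference between days was built into their passing. With 2 arrays of Ckm and 3 of Myh3 at the floor on day -2, the sizes of these 2 rises are bounds. Myog rose by 5.96 ± 0.22 (SE) on the log2 scale. Already on day 0 relative to day -2, Myog had risen by 5.54 ± 0.22, Acta1 by 3.02 ± 0.14, Myod1 by 1.15 ± 0.10 and Des by 0.61 ± 0.16 (SE). Myh3 and Ckm were also called higher in that step, and Myf5 lower (-1.19 ± 0.27, SE). Summed over the 7, intensity on day 10 lay between 110165 and 131275, against 16750.0 to 18559.9 on day -2. Of the macrophage and of the endothelial markers, 2 of 5 each passed the filter and none was called in any of the 4 comparisons. Their summed intensities lay between 541.5 and 896.5 and between 605.6 and 735.4 on day 10, against 556.2 to 927.5 and 278.0 to 969.8 on day -2. Of 3 measured adipocyte markers only Pparg passed, through days -2 and -1 alone. It was at least 5.34-fold lower on day 10, when all 3 arrays were under the floor, than on day -2 (adjusted p = 1.44e-05), the 3 markers together summing to between 210.7 and 245.1 on day 10 and between 438.9 and 770.7 on day -2. No marker of these 3 lists was at or under the floor on every array. The 3′ to 5′ signal ratio of Gapdh, a measure of RNA integrity, averaged 0.827 ± 0.043 on day 10 and 0.823 ± 0.029 on day 0, against 0.884 ± 0.063 on day -2 (SD, n = 3). The same ratio of beta-actin averaged 1.077 ± 0.017 on day 10 and 1.032 ± 0.037 on day 0, against 1.092 ± 0.059 on day -2 (SD, n = 3). It was highest on day 4, at 1.141 ± 0.029. The part of Pparg-expressing cells and of RNA integrity in the changes below was not tested.

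Hspb2, a small heat shock protein found mainly in heart and skeletal muscle that binds the myotonic dystrophy kinase, rose in both of its probe sets. One of its 2 probe sets, the one with the higher mean, read 2556, 2737 and 2974 on day -2, 5132, 6119.5 and 5396 on day 0, 14322, 14530.0 and 17709 on day 2 and 20451, 25722 and 19491 on day 10. The arrays of each of these days lay above all arrays of the earlier of them. Day -1, when cells were still proliferating, read 5373, 5261 and 4078, wholly above day -2 and overlapping day 0. The step from day -2 to day -1 was not tested. The rise was 2.01-fold on day 0 relative to day -2 (log2 change 1.01 ± 0.12 SE, adjusted p = 3.24e-07), 2.79-fold on day 2 relative to day 0 (log2 change 1.48 ± 0.12 SE, adjusted p = 9.66e-10) and 1.41-fold on day 10 relative to day 2 (log2 change 0.49 ± 0.12 SE, adjusted p = 0.00539). This last call was lost with scan day as a fixed factor, at a change of 0.41. On day 10 Hspb2 was 7.9-fold higher than on day -2 by this probe set and 28.6-fold by its other probe set, the largest fold measured above the floor among the tested members, which read 5445, 8107 and 5570.3 on day 10, against 153, 341 and 202 on day -2.

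Hspb8, the small heat shock protein that works with Bag3 in the selective autophagy of damaged muscle proteins, rose from day 2 on. Of its 2 probe sets, the one shown in the plot of intensities by array read 4675, 5074 and 4721 on day -2, 4751, 6533 and 5556 on day 0, 7812, 9626 and 9295 on day 2 and 16347, 16449 and 15583 on day 10. Days -2 and 0 overlapped, and the change between them was not called (log2 change 0.21 ± 0.12 SE, adjusted p = 0.216). All arrays of day 2 lay above those of day 0, and all of day 10 above those of day 2. The rise was 1.59-fold on day 2 relative to day 0 (log2 change 0.67 ± 0.12 SE, adjusted p = 0.000171), lost with scan day as a fixed factor, and 1.82-fold on day 10 relative to day 2 (log2 change 0.86 ± 0.12 SE, adjusted p = 2.58e-05). The other probe set was called on day 10 relative to day -2 alone (log2 change 2.13 ± 0.43 SE, adjusted p = 0.000275), and had passed the intensity limit through days 2 to 10 alone.

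The other small heat shock proteins gave no called change. Hspb1, the stress-induced protein that binds actin filaments, varied between arrays of a day, with 395, 96.4 and 30.9 on day 10, against 66.6, 129 and 56.5 on day -2 (log2 change 0.65 ± 0.62 SE, adjusted p = 0.441). Hspb11, which bears the family name but belongs to the intraflagellar transport complex, changed by 0.16 ± 0.24 (SE) over the same span. Of the 6 small heat shock protein probe sets, 4 rose on day 10 relative to day -2 and none fell, and all 4 belonged to Hspb2 and Hspb8. That was 66.7%, against 22.2% of all tested probe sets, and 2 of 4 genes. The count includes the Hspb8 probe set that passed the intensity limit through days 2 to 10 alone, so a difference between days was built into its passing.

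**Figure D2:**
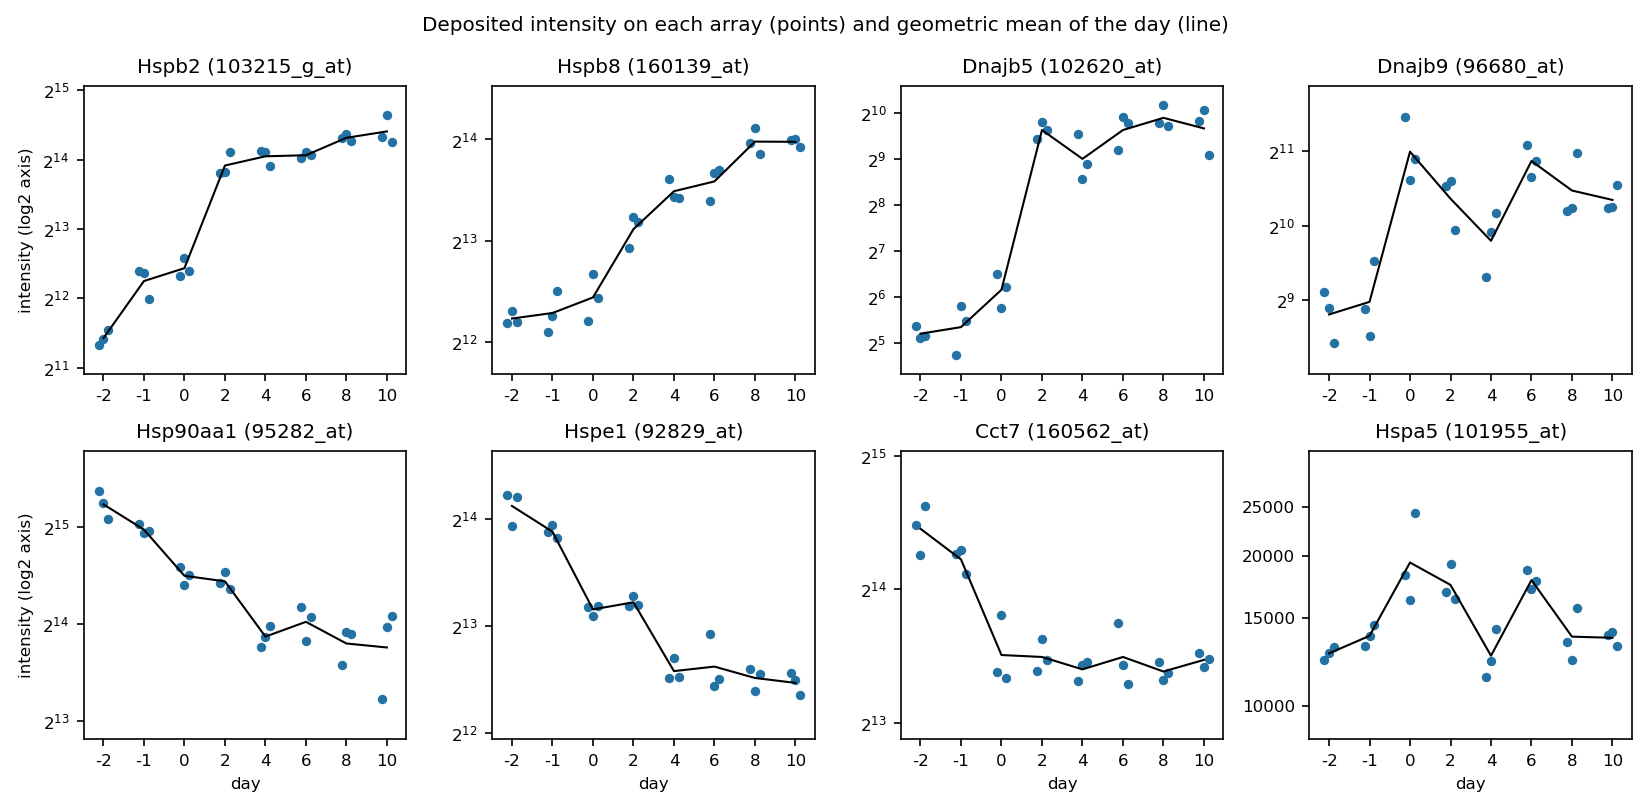
Deposited intensity, without the floor, on each of the 24 arrays (points, vertical log2 axis) against day (horizontal axis) for 8 members, with the geometric mean of each day (line). Hspb2 steps up at day -1 and again at day 2, and Hspb8 climbs to day 8. Dnajb5 is low through day 0 and high from day 2, and Dnajb9 and Hspa5 peak on day 0. Cct7 falls by day 0 and stays low, and Hsp90aa1 and Hspe1 fall by day 0 and again by day 4.

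Among the J-domain proteins, Dnajb5, a relative of the heat-inducible Dnajb1, was measured above the floor on every array from day 2 on. It read 41.0, 34.2 and 35.4 on day -2, 90.5, 53.8 and 74.4 on day 0, 693, 894 and 797 on day 2 and 908, 1075 and 545 on day 10. Every array of days 2 to 10 lay above every array before. All arrays of days -2 and -1 and 2 of the 3 of day 0 were under the floor, so the change is a bound: Dnajb5 was at least 9.73-fold higher on day 2 than on day 0 (log2 change 3.28 ± 0.29 SE, adjusted p = 6.15e-09) and at least 10.5-fold higher on day 10 than on day -2. With a lower floor, at the 5th percentile of all values, the step on day 0 relative to day -2 was called as well, at 0.96.

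Dnajb9, an endoplasmic reticulum J-domain protein that binds Hspa5 and is induced by the unfolded protein response, followed a different course. The first of its 2 probe sets read 554, 474 and 342 on day -2, 2819, 1565 and 1909.6 on day 0, 1485, 1551 and 987 on day 2 and 1209, 1215 and 1494 on day 10. Day 0 lay wholly above day -2 and day 2 wholly below day 0, with a rise on day 0 of 4.54-fold (log2 change 2.18 ± 0.29 SE, adjusted p = 1.78e-06). The second probe set rose 4.88-fold in that step (log2 change 2.29 ± 0.22 SE, adjusted p = 1.96e-08), fell 2.12-fold on day 2 relative to day 0 (log2 change -1.08 ± 0.22 SE, adjusted p = 0.000707) and rose again on day 10 relative to day 2 (log2 change 0.75 ± 0.22 SE, adjusted p = 0.0251). The fall was not called in the first probe set (log2 change -0.63 ± 0.29 SE, adjusted p = 0.131), nor was the later rise (-0.02 ± 0.29), which the second itself lost in 7 alternatives with changes of 0.25 to 0.77, among them the leaving out of day 2 replicate 1 or 2 or of day 10 replicate 1 or 3. With scan day as a fixed factor the second was still called on day 0, and the first was not, at 1.89. Over the whole course Dnajb9 rose by 1.95 ± 0.22 and 1.54 ± 0.29 (SE) in its 2 probe sets.

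Dnajc3, which sits in the lumen of the same compartment as an Hspa5 partner and inhibits eIF2α kinases, is given although the rule for naming genes did not take it. One of its probe sets read 2332, 2687 and 2379.7 on day 0, against 1196, 1249 and 1309 on day -2, with no overlap, and rose (log2 change 0.98 ± 0.21 SE, adjusted p = 0.000629). It fell on day 2 relative to day 0 (log2 change -0.72 ± 0.21 SE, adjusted p = 0.0125). Neither call was made with scan day as a fixed factor. The other 2 tested probe sets of Dnajc3 had changes of 0.37 ± 0.18 and 0.60 ± 0.30 on day 0 (SE) and were not called. Dnajb11, another Hspa5 partner in the reticulum, likewise outside the rule, had a change of -0.01 ± 0.15 on day 0 (SE), not called, and rose on day 2 relative to day 0 (log2 change 0.54 ± 0.15 SE, adjusted p = 0.0116), not called with scan day as a fixed factor.

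Several J-domain proteins of the cytosol and nucleus fell. Dnajb1, the classical heat-inducible partner of Hsp70, read 4611, 4184 and 4230.1 on day -2, 2434, 2293 and 2213 on day 0, 2101, 1982 and 2083 on day 2 and 2112, 1894 and 1978 on day 10. On day -1 it read 2687, 2646 and 2818, already wholly below day -2 and wholly above day 0. Day 0 was wholly below day -2 and day 2 wholly below day 0, though the step from day 0 to day 2 was not called (-0.17 ± 0.11, SE). The fall was 1.88-fold on day 0 (log2 change -0.91 ± 0.11 SE, adjusted p = 4.49e-07) and 2.18-fold on day 10 (log2 change -1.12 ± 0.11 SE, adjusted p = 7.95e-09), both relative to day -2. Dnajc2, which binds ribosomes and nascent chains, fell in both probe sets on day 0, with changes of -1.15 ± 0.17 and -1.03 ± 0.19 (SE), and stood 2.29-fold and 2.42-fold lower on day 10 than on day -2. The falls on day 0 were not called with scan day as a fixed factor, where they were -0.75 and -0.69. Dnajc21, a ribosome biogenesis factor outside the naming rule, fell in the same step (log2 change -0.84 ± 0.19 SE, adjusted p = 0.00147), and was not called with that factor either.

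Dnaja1, a cytosolic Hsp70 partner that also serves farnesylated clients and steroid receptors, fell on day 2. It read 4622, 5127 and 5334 on day 2, against 7264, 10467 and 9676 on day 0, without overlap (log2 change -0.85 ± 0.16 SE, adjusted p = 0.00023), after a change of 0.23 ± 0.16 on day 0 that was not called. Dnajb2, a ubiquitin-binding member, went the other way in the same step, with 1318, 1578 and 1865 on day 2, against 619.8, 1009.9 and 805 on day 0 (log2 change 0.98 ± 0.17 SE, adjusted p = 0.000138). That rise was not called with scan day as a fixed factor, at 0.71. Dnajc9, a partner of Hsp70 in the handling of histones, fell on day 0 (-0.79 ± 0.17), rose on day 2 (0.71 ± 0.17) and fell on day 10 relative to day 2 (-0.55 ± 0.17, SE), the last lost without day 2 replicate 2 or 3 or day 10 replicate 1 or 2. The fall on day 0 was not called with scan day as a fixed factor or within the largest chip lot. Day 0 replicate 3 was the lowest of its 24 arrays, at 2122.

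Dnajb6, whose protein suppresses aggregation and whose human mutations cause a limb-girdle myopathy, gave opposite answers in its 2 probe sets. On day 2 relative to day 0 one rose, with 3297, 3165 and 3515 on day 2, against 1436, 1919 and 1671 on day 0 (log2 change 1.00 ± 0.18 SE, adjusted p = 0.000252). In the same step the other fell, with 5847, 5764 and 5840.1 on day 2, against 9620.0, 9645 and 10882 on day 0 (log2 change -0.79 ± 0.10 SE, adjusted p = 1.11e-06). Groups did not overlap in either, and the rise was not called with scan day as a fixed factor, at 0.98. They also opposed each other on day 0 relative to day -2 (-0.52 ± 0.18 and 0.35 ± 0.10, SE), though the call of the first there was lost in 9 alternatives, 5 of them the leaving out of an array of day -2 or of day 0 replicate 1 or 3. Which transcripts each probe set reads was not tested. Of the 13 member genes with several tested probe sets, Dnajb6 was the only one with calls in opposite directions in any of these comparisons.

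Of the remaining J-domain members, Dnaja2 was the only one to rise on day 10 relative to day 2 besides Dnajb9 (log2 change 0.46 ± 0.13 SE, adjusted p = 0.0192), and Dnajc13, an endosomal protein, fell (log2 change -0.61 ± 0.19 SE, adjusted p = 0.0348). Both calls were lost without any one of several arrays of days 2 and 10, Dnaja2's without day 2 replicate 1 or 3 or day 10 replicate 3 and Dnajc13's without any array of day 2 or day 10 replicate 1 or 2. In all, 4 of 32 tested J-domain probe sets rose on day 0 relative to day -2 and 8 fell. These were 12.5% and 25.0%, against 16.5% and 16.1% of all tested probe sets. Over the whole course 8 rose and 9 fell, with a median change of 0.05. The whole-course shares, 25.0% and 28.1%, lay near the 22.2% and 22.3% of all tested probe sets.

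The cytosolic chaperonin was lower on days 0 and 10 than on day -2 in most of its probe sets. Of its 12 tested probe sets none rose and 10 fell on day 0 relative to day -2 (83.3%, median change -0.68). On day 10 relative to day -2, 11 fell (91.7%, median -0.79). Of all tested probe sets, 16.1% fell on day 0 and 22.3% on day 10. Cct7 read 22798, 19563 and 25246 on day -2, 10656, 14337 and 10339.9 on day 0, 10704, 12628 and 11336 on day 2 and 11739, 10918 and 11429 on day 10. Its arrays of days 0, 2 and 10 overlapped one another and all lay below day -2. On day -1, with cells still proliferating, it read 19672, 20055 and 17719, overlapping day -2 and wholly above day 0. The fall was 1.92-fold on day 0 (log2 change -0.94 ± 0.12 SE, adjusted p = 1.47e-06), and Cct7 was the only one of the 10 that stayed called with scan day as a fixed factor. Within the largest chip lot, with its lone array of day -2, 7 of the 10 were called.

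Cct4 read 14824, 15028 and 15411 on day 0, against 24029, 27272 and 24468 on day -2, without overlap, and 10777, 14015 and 14898 on day 10. On day -1, when cells were still proliferating, it read 19664, 19173 and 20031, already wholly below day -2 and wholly above day 0. That first step was not tested. It fell on day 0 (-0.74 ± 0.12) and on day 10 (-0.94 ± 0.12, SE), both relative to day -2. Cct5 had 15001, 15723 and 18674 on day 0, against 24878, 25029.6 and 23184 on day -2 in its first probe set and 1584, 969.9 and 1098 on day 0, against 2747, 2825 and 2083 on day -2 in its second. Neither pair of groups overlapped, and the changes were -0.57 ± 0.08 and -1.09 ± 0.21 (SE). All 3 probe sets of Cct3 fell in that step, with changes of -0.62 ± 0.21, -0.84 ± 0.11 and -0.93 ± 0.12 (SE).

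Cct8 read 4064, 5070.2 and 5337 on day 0, against 8609, 7845 and 8022 on day -2 and fell on day 0 (log2 change -0.77 ± 0.12 SE, adjusted p = 1.54e-05). Cct6a fell in the same step (-0.57 ± 0.14, SE). These 2 were the only chaperonin probe sets called on day 10 relative to day 2 (-0.40 ± 0.12 for Cct8 and -0.46 ± 0.14 for Cct6a, SE), and each lost that call in 7 alternatives, among them the leaving out of day 2 replicate 2 or day 10 replicate 3. Cct2 had the smallest of the called changes on day 0 (log2 change -0.50 ± 0.18 SE, adjusted p = 0.0367), a call lost without day -2 replicate 1 or 2 or day 0 replicate 1 or 2. Its call on day 10 relative to day -2 (-0.54 ± 0.18, SE) was lost without day -2 replicate 1 or 2 or day 10 replicate 3.

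Tcp1, the founding subunit of the ring, had another probe set that was not tested. The tested one read 2347, 2076 and 2111 on day -2, 1846, 1517 and 1888 on day 0, 1459, 1144 and 1397 on day 2 and 1517, 1525 and 1493 on day 10. Day 0 lay wholly below day -2, but the change was not called (log2 change -0.32 ± 0.14 SE, adjusted p = 0.0878). Day 2 lay wholly below day 0 (log2 change -0.39 ± 0.14 SE, adjusted p = 0.0466), a call that was lost in 22 alternatives with changes of -0.53 to -0.29, among them the leaving out of day 0 replicate 1 or 3 or day 2 replicate 2 or 3. Day 10 lay above day 2, without a call (0.19 ± 0.14, SE). On day 10 Tcp1 was 1.44-fold lower than on day -2 (log2 change -0.52 ± 0.14 SE, adjusted p = 0.00348), not called with scan day as a fixed factor or within the largest chip lot. Cct6b, the testis form of the sixth subunit, was the 1 tested chaperonin probe set with no call over the whole course (-0.21 ± 0.39, SE).

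Hsp90aa1, the inducible cytosolic Hsp90, fell in 2 stages. It read 42274, 38823 and 34513 on day -2, 24618, 21559.7 and 23209 on day 0, 22012, 23715 and 20959 on day 2 and 9626, 16001 and 17292 on day 10. Day 0 lay wholly below day -2, days 0 and 2 overlapped, and day 10 lay wholly below day 2. On day -1 Hsp90aa1 read 33315, 31245 and 31736, already wholly below day -2 and wholly above day 0. The fall was 1.66-fold on day 0 relative to day -2 (log2 change -0.73 ± 0.15 SE, adjusted p = 0.000487), with no call for that step when scan day was a fixed factor (-0.55), and 1.6-fold on day 10 relative to day 2 (log2 change -0.68 ± 0.15 SE, adjusted p = 0.00312). Over the whole course it was 2.77-fold (log2 change -1.47 ± 0.15 SE, adjusted p = 2.38e-08). Daily means on the log2 scale were 14.44 on day 2 and 13.87 on day 4.

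Hspe1, the lid of the mitochondrial chamber, took the same 2 stages. It read 19164, 15651 and 18909.5 on day -2, 9272, 8759.5 and 9350.0 on day 0, 9319, 9942 and 9411 on day 2 and 6025, 5757 and 5251 on day 10. No array of day 0 reached the level of day -2 and none of day 10 that of day 2. The falls were 1.95-fold (log2 change -0.97 ± 0.11 SE, adjusted p = 2.13e-07) and 1.69-fold (log2 change -0.75 ± 0.11 SE, adjusted p = 4.27e-05), the second not called with scan day as a fixed factor (-0.52), and 3.15-fold over the whole course.

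Hspd1, the chamber itself, shares the promoter region printed above but had a wider spread between arrays. The probe set with the higher mean read 27209.9, 20971 and 28953 on day -2, 25771, 18889 and 24523 on day 0, 24584, 25231 and 24482 on day 2 and 7606, 13569 and 18985 on day 10. Days -2, 0 and 2 overlapped and no change between them was called (-0.16 ± 0.28 on day 0 and 0.12 ± 0.28 on day 2, SE). Day 10 lay below day 2 and below day -2, with falls of 1.98-fold (log2 change -0.98 ± 0.28 SE, adjusted p = 0.019) and 2.04-fold (log2 change -1.03 ± 0.28 SE, adjusted p = 0.00405). Without day 10 replicate 1, its lowest array on that day, these were -0.63 and -0.67 and neither was called. The fall relative to day 2 was also lost without day 2 replicate 1 or 2, and both with scan day as a fixed factor. Its second probe set changed by -0.07 ± 0.42 (SE) over the whole course and was not called. The difference in timing between Hspd1 and Hspe1 was not tested.

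**Figure D3:**
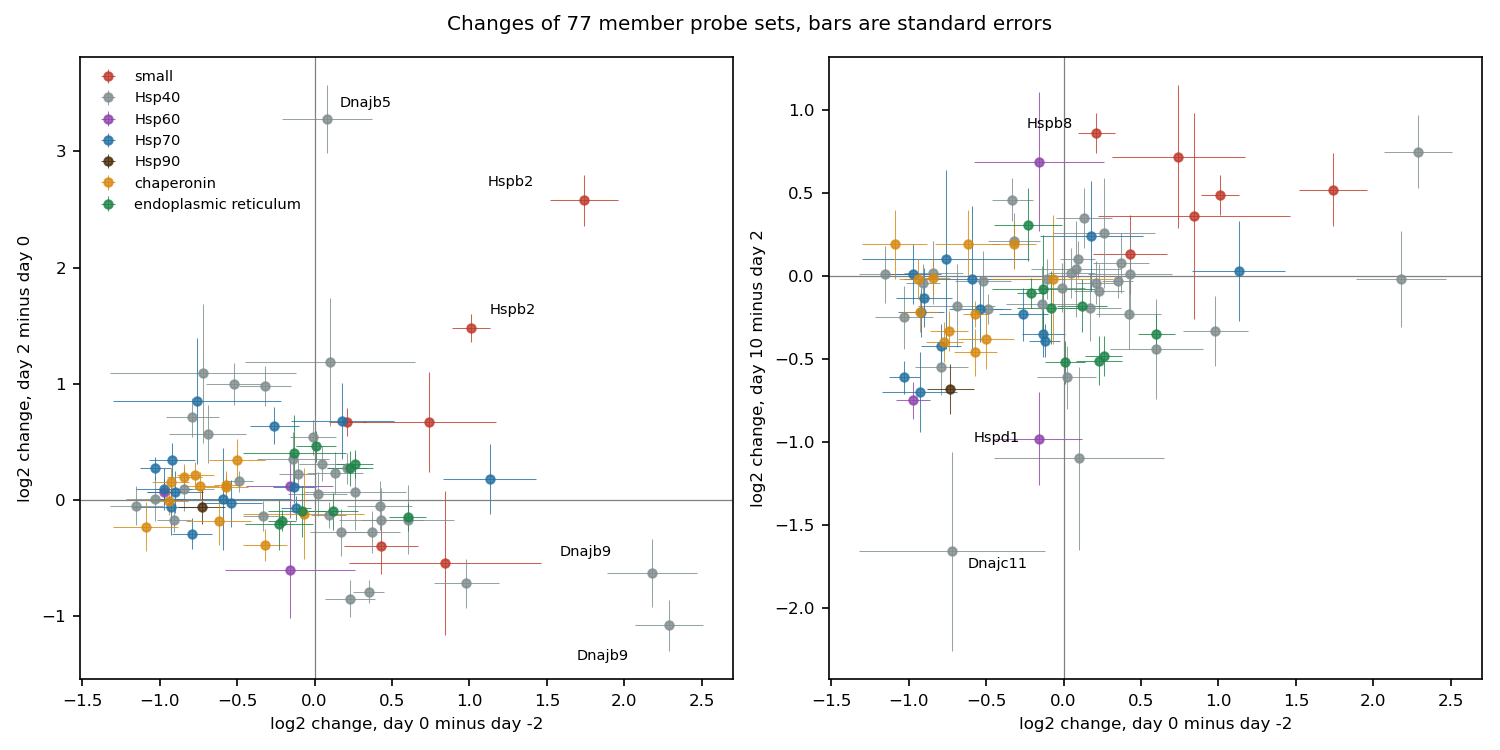
Log2 change of each tested member except Hspbp1 (points, coloured by class, bars are standard errors) on day 2 minus day 0 (left, vertical axis) and on day 10 minus day 2 (right, vertical axis) against its change on day 0 minus day -2 (horizontal axes). Both axes of the left panel use the day 0 arrays; Dnajb5 and Hspb2 stand highest there, at 3.28 and 2.58, and in the right panel Hspe1 and Hsp90aa1 lie at the lower left, with changes of -0.97 and -0.75 and of -0.73 and -0.68.

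In the Hsp70 family, 7 of 14 probe sets fell and 1 rose on day 0 relative to day -2, and 9 fell and 2 rose over the whole course. Several of these falls were in probe sets of the same gene, Hspa4. Counted once per gene, 4 of 10 fell and 1 rose on day 0, and 6 fell and 2 rose over the whole course. Of all tested probe sets, 16.1% fell and 16.5% rose on day 0, and 22.3% fell and 22.2% rose over the whole course. Hsph1, the large exchange factor of Hsp70, read 11662, 10812 and 13893 on day -2, 5314, 6604 and 5923 on day 0, 6609.7, 7664 and 7165 on day 2 and 4578, 4541 and 4885 on day 10. It was wholly lower on day 0 than on day -2 and wholly lower on day 10 than on day 2. On day -1 it read 8466, 9038 and 9643, already wholly below day -2 and wholly above day 0. The falls were 2.04-fold (log2 change -1.03 ± 0.10 SE, adjusted p = 3.04e-08) and 1.53-fold (log2 change -0.61 ± 0.10 SE, adjusted p = 0.000199). Both were called with scan day as a fixed factor too.

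Hspa4, another exchange factor, had 5 probe sets, of which 4 fell on day 10 relative to day -2, with changes between -1.50 and -0.37 on the log2 scale. The smallest of the 4 changes was -0.37 ± 0.14 (SE), a call lost without day -2 replicate 1 or 3 or day 10 replicate 1. That probe set had the highest mean of the 5. Its change on day 0 relative to day -2 was not called (-0.13 ± 0.14, SE), nor did it differ among the 8 days in the F test (adjusted p = 0.0518). The probe set outside the 4 was called in no comparison. The probe set with the largest change read 2714, 3435 and 3224 on day 0, against 5412, 5640.2 and 5106 on day -2, without overlap (log2 change -0.79 ± 0.13 SE, adjusted p = 2.33e-05), and 1747, 1959.8 and 1997 on day 10. It was 2.84-fold lower on day 10 than on day -2. Its fall on day 0 was not called with scan day as a fixed factor, at -0.72. Its fall on day 10 relative to day 2 (-0.42 ± 0.13, SE) was lost without day 2 replicate 1 or 2 or day 10 replicate 1.

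Hspa9, the Hsp70 of mitochondria, read 8653, 9575 and 9426 on day 0, against 16555, 18329 and 17572 on day -2, without overlap, and fell 1.9-fold (log2 change -0.92 ± 0.15 SE, adjusted p = 3.26e-05). With scan day as a fixed factor the change was -0.63 and not called. On day -1 Hspa9 read 14259, 13987 and 13923, already wholly below day -2 and wholly above day 0. It was also lower on day 10 than on day -2 (log2 change -0.80 ± 0.15 SE, adjusted p = 0.000109), with day 10 at 8682, 8971 and 12886. Hspa8, the constitutive cytosolic Hsp70, changed by -0.12 ± 0.10 on day 0 (SE, not called) and fell on day 10 relative to day 2 (log2 change -0.39 ± 0.10 SE, adjusted p = 0.00837). It read 13616, 16819.9 and 12841 on day 10, against 18687, 19793 and 17954 on day 2, without overlap. This call was lost without day 10 replicate 3 and with chip lot or scan day as a fixed factor. Over the whole course it fell 1.49-fold (log2 change -0.58 ± 0.10 SE, adjusted p = 3.48e-05). Hspa14, a ribosome-associated Hsp70 that the naming rule left out, fell on day 0 (log2 change -0.90 ± 0.18 SE, adjusted p = 0.000331), not called with scan day as a fixed factor.

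The stress-inducible Hspa1a and Hspa1b are near-identical copies whose transcripts probe sets may not separate, and the values of both are uncertain for this reason. Hspa1b read 4548, 3243 and 4243 on day -2, 2579.9, 2262 and 1556 on day 0, 2366, 1943 and 1745 on day 2 and 1935, 1261 and 769 on day 10. Day 0 lay wholly below day -2, and day 10 overlapped day 2. The fall was 1.9-fold on day 0 (log2 change -0.93 ± 0.24 SE, adjusted p = 0.00382) and 3.22-fold on day 10 (log2 change -1.69 ± 0.24 SE, adjusted p = 3.16e-06), relative to day -2. Hspa1a, outside the naming rule, read 614, 712 and 628 on day 10, against 453, 219 and 281 on day -2 and rose over the whole course (log2 change 1.10 ± 0.33 SE, adjusted p = 0.00802), not called with scan day as a fixed factor.

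Hspa2, best known from the testis, was the 1 Hsp70 probe set to rise on day 0. It read 342, 507 and 463 on day 0, against 116, 262 and 251 on day -2, without overlap (log2 change 1.13 ± 0.30 SE, adjusted p = 0.00455). On day -1 it read 529, 466 and 308, already wholly above day -2 and overlapping day 0. Day -2 replicate 1 was the lowest array, at 115.7, and without it the change on day 0 was 0.75 and not called. The call was also lost with scan day as a fixed factor, at 1.38. On day 10 Hspa2 was 2.54-fold higher than on day -2 (log2 change 1.35 ± 0.30 SE, adjusted p = 0.000669). Hspa4l, a relative of Hspa4, rose on day 2 relative to day 0 (log2 change 0.64 ± 0.16 SE, adjusted p = 0.00509), the only call of the family in that step.

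Of 9 tested probe sets of the endoplasmic reticulum, 6 differed among the days (66.7%, against 55.1% of all tested probe sets). On day 0 relative to day -2, 1 rose (11.1%, against 16.5% of all) and none fell. On day 2 relative to day 0, 1 rose (11.1%, against 11.2% of all) and none fell. On day 10 relative to day 2 none rose and 4 fell (44.4%, against 7.26% of all), 3 of them probe sets of Pdia6 and the other Hspa5. Over the whole course none rose and 1 fell (11.1%, against 22.3% of all). Hspa5, the Hsp70 of the reticulum, read 12354, 12743 and 13137 on day -2, 18259.7, 16325 and 24368 on day 0, 16935, 19268 and 16334 on day 2 and 13843, 14081 and 13161 on day 10. Day 0 lay wholly above day -2, and day 10 lay wholly above it too, by less. The rise on day 0 was 1.52-fold (log2 change 0.60 ± 0.12 SE, adjusted p = 0.000244) and was called with scan day as a fixed factor. Day 10 was lower than day 2 (log2 change -0.35 ± 0.12 SE, adjusted p = 0.0466), a call lost in 24 alternatives with changes of -0.40 to -0.22, and differed from day -2 by 0.10 ± 0.12 (SE, not called). Its daily mean was 13.62 on day 4 and 14.12 on day 6, on the log2 scale.

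Hsp90b1, the Hsp90 of the reticulum, was not called on day 0. It read 13552, 14720.3 and 14491 on day 0, against 17416, 18617 and 13889.8 on day -2, which overlapped (log2 change -0.21 ± 0.09 SE, adjusted p = 0.0882), and 11719.6, 11293 and 12333 on day 10. Over the whole course it fell 1.4-fold (log2 change -0.49 ± 0.09 SE, adjusted p = 0.000136). Pdia6, a disulfide isomerase that binds Hspa5, fell on day 10 relative to day 2 in all 3 probe sets, with changes of -0.48 ± 0.12, -0.51 ± 0.15 and -0.52 ± 0.13 (SE). The first of these read 6072, 5833 and 6305 on day 10, against 8271, 9339 and 7918 on day 2, without overlap (log2 change -0.48 ± 0.12 SE, adjusted p = 0.00589), and lost the call only with scan day as a fixed factor. The other 2 lost it also without day 10 replicate 1, and the second of the 3 without day 2 replicate 1 or 2 as well. Pdia3 and Pdia4, isomerases of glycoproteins and of secreted proteins, and the lectin Canx were called in none of the 4 comparisons, though Pdia4 differed among the 8 days in the F test (adjusted p = 0.0483), with day 10 relative to day -2 at -0.16 ± 0.16, -0.13 ± 0.22 and 0.20 ± 0.33 (SE). Hspbp1, an exchange factor of Hsp70, changed by -0.16 ± 0.13 (SE) and was not called in any comparison.

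**Figure D4:**
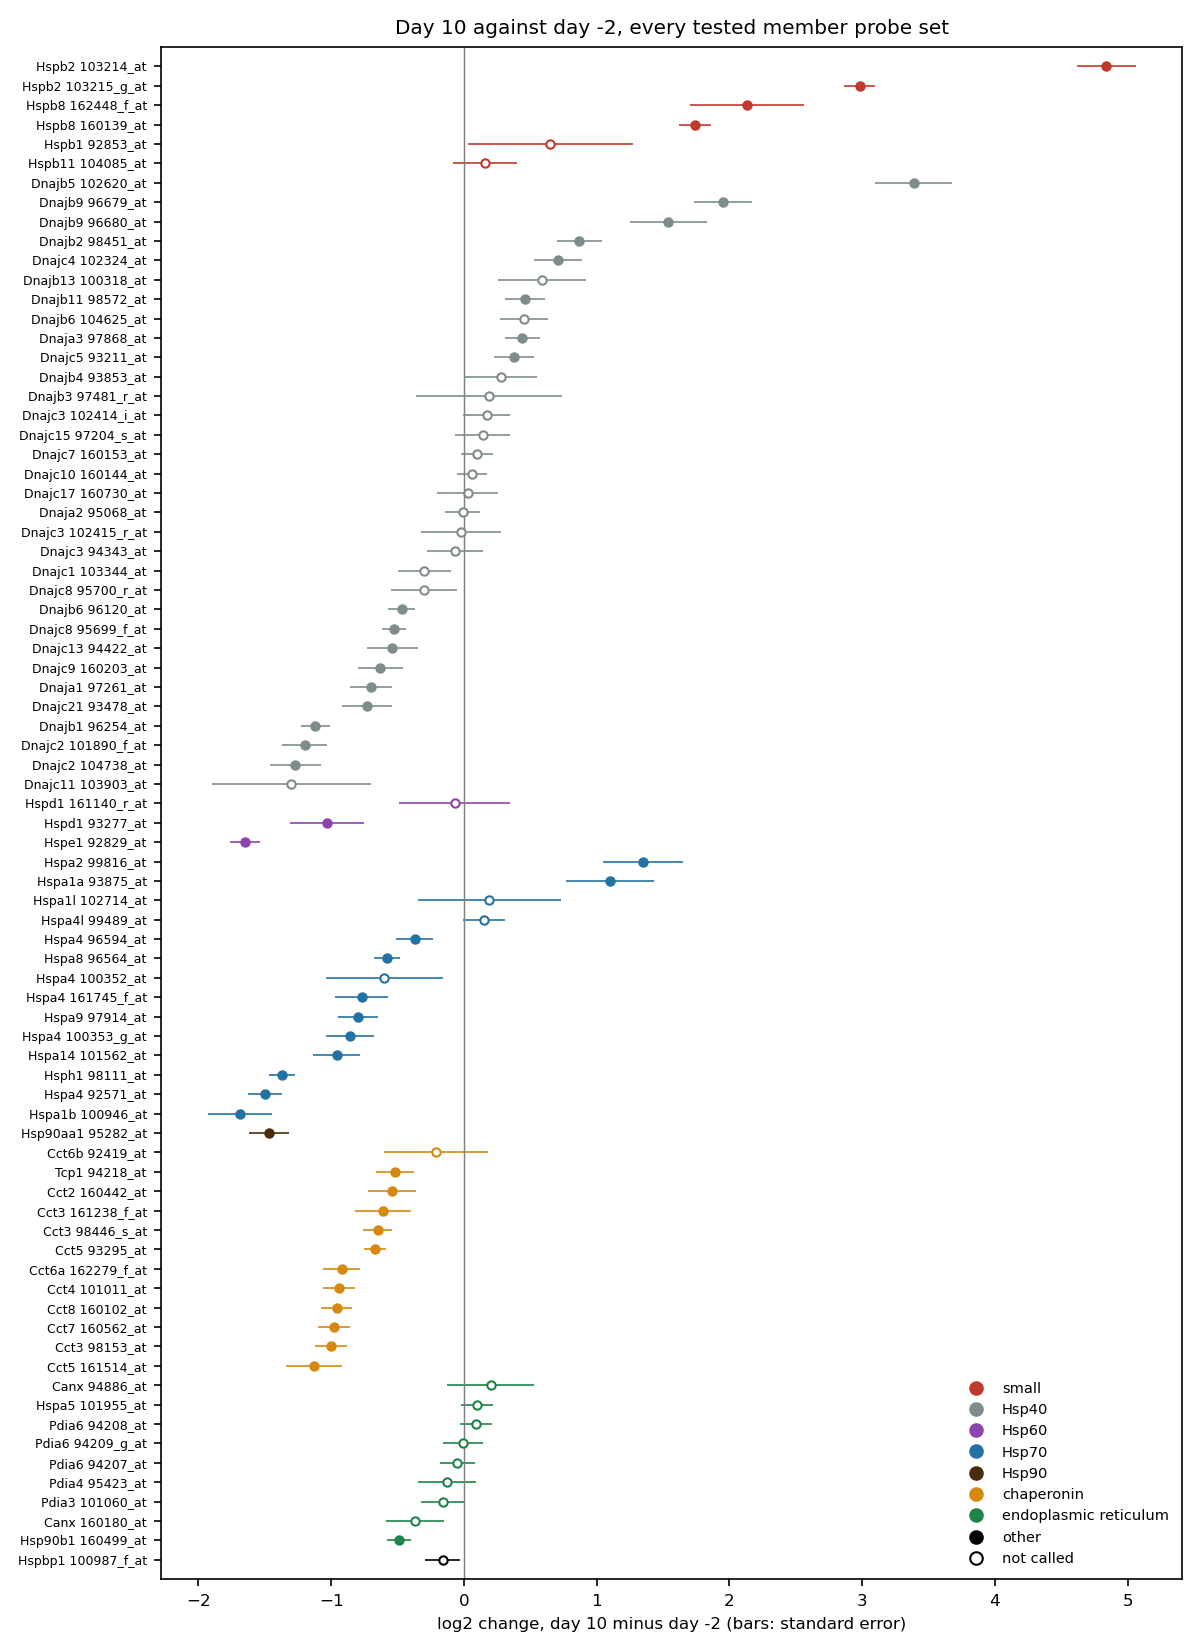
Log2 change on day 10 minus day -2 (horizontal axis, bars are standard errors, 3 arrays a day) of the 78 tested member probe sets (rows), grouped by class. Filled points passed the adjusted p of 0.05: 14 lie to the right of 0, led by Hspb2 and Dnajb5, and 33 to the left, among them 11 of 12 chaperonin probe sets.

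The partners of these chaperones were read from a list of 36 co-chaperones and heat shock factors, of which 24 genes were tested. On day 0 relative to day -2, 3 rose and 9 fell, and on day 10 relative to day -2, 4 rose and 8 fell, with medians of -0.13 and -0.26. As shares these were 12.5% and 37.5% on day 0, against 16.5% and 16.1% of all tested probe sets, and 16.7% and 33.3% on day 10, against 22.2% and 22.3%. Stip1, the adaptor that hands clients from Hsp70 to Hsp90, read 2080.0, 1876 and 1893 on day 0, against 4328, 4194 and 4958 on day -2, without overlap (log2 change -1.20 ± 0.12 SE, adjusted p = 3.8e-08). It rose on day 2 relative to day 0 (0.75 ± 0.12, SE). The Hsp90-bound prolyl isomerase Fkbp4 fell on day 0 (log2 change -1.18 ± 0.10 SE, adjusted p = 4.37e-09) and again on day 10 relative to day 2 (log2 change -0.68 ± 0.10 SE, adjusted p = 7.07e-05). Ppid, of the same kind, fell on day 0 (-0.89 ± 0.15) and on day 10 relative to day 2 (-0.70 ± 0.15, SE). Over the whole course it changed by -1.57 ± 0.15 (SE). Fkbp5 rose on day 0 (0.40 ± 0.10) and fell on day 10 relative to day 2 (-0.46 ± 0.10, SE). Hsbp1, which binds heat shock factor trimers, rose on day 0 (log2 change 0.93 ± 0.22 SE, adjusted p = 0.00183).

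Among the risers of the list, Cryab, a small heat shock protein of muscle whose gene lies beside Hspb2, read 3370.4, 3303 and 2652 on day 2, against 1007, 901 and 1076 on day 0, without overlap. The rise was 3.12-fold (log2 change 1.64 ± 0.14 SE, adjusted p = 2.73e-09), and the level on day 10 was 3.19-fold that of day -2. The Hsp70 exchange factor Bag1 rose in the same step (0.76 ± 0.14, SE).

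From a list of 43 further genes of endoplasmic reticulum folding and the unfolded protein response, 35 were tested. On day 0 relative to day -2, 6 rose and 1 fell, and over the whole course 10 rose and 5 fell, with medians of 0.11 and 0.02. The shares were 17.1% and 2.86% on day 0, against 16.5% and 16.1% of all tested probe sets, and 28.6% and 14.3% on day 10, against 22.2% and 22.3%, so the shares that rose lay near those of the whole array. Xbp1, a transcription factor of the response that acts on Dnajb9, read 6811, 7853 and 7271 on day 0, against 2782, 2222 and 2525 on day -2, without overlap (log2 change 1.55 ± 0.11 SE, adjusted p = 2.65e-10). Atf6, the membrane-bound factor that acts through the stress element, rose as well (log2 change 1.28 ± 0.21 SE, adjusted p = 3.32e-05). Both were still called higher on day 10 than on day -2 (1.22 ± 0.11 for Xbp1 and 1.54 ± 0.21 for Atf6, SE). Ddit3, a factor of its cell death branch, fell on day 0 (log2 change -0.91 ± 0.29 SE, adjusted p = 0.0179) and rose on day 2 relative to day 0 (log2 change 0.90 ± 0.29 SE, adjusted p = 0.0268). Herpud1, which serves the degradation of reticulum proteins, rose on day 2 (log2 change 1.23 ± 0.14 SE, adjusted p = 3.16e-07), while Sec61a1, a subunit of the translocation channel, fell (log2 change -0.68 ± 0.11 SE, adjusted p = 7.84e-05). On day 10 relative to day 2 the isomerase Fkbp7 rose (0.65 ± 0.12) and the translocon subunit Ssr2 fell (-0.48 ± 0.11, SE).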

How the data were processed

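RNA of C2C12 cells was measured on 1-colour Affymetrix MG_U74Av2 arrays, 3 on each of 8 days, grouped by the day in the labels. The values are linear intensities as deposited by the authors, 1 per probe set. The method that summarised the probes is not given in the sources used here. Trimmed means (2%) lay between 1499.69 and 1499.73, so each array had been scaled to a common level, and changes are relative to that scale. Chip lot and scan day came from the array information files the authors deposited.

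Control probe sets (66 of 12488) were left out. Intensities were floored at 77, the 20th percentile, which held 15.7% to 25.6% of the values of an array, and log2 was taken. A probe set was tested where its highest daily mean of floored values exceeded 277.7, the 40th percentile. One coefficient per day was fitted to all 24 arrays with limma 3.58.1 in R 4.3.3 (lmFit, eBayes with trend), adjusted by Benjamini-Hochberg over the 8484 probe sets tested, 2-sided, and called at an adjusted p under 0.05. The number of arrays limits the precision. The fit was tested on simulated data. Figures used matplotlib 3.10.9 with Python 3.11.15.

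Of 12422 probe sets, 10833 had a single symbol, 396 several and 1193 none. Symbols came from the platform annotation and were updated by gene identifier. Probe sets ending in _f, _g, _i, _r or _s can read more than 1 transcript or lack part of their probes, and levels were not compared between probe sets. Named were a fixed set of core members and up to 4 called probe sets per class and comparison with the largest changes, and up to 3 from each other list. A gene with several probe sets was represented by that with the highest mean. The members and all lists were chosen with earlier results of these data known. Alternatives were quantile normalization, other floors, a pseudocount, no filter, a replicate block, scan day as a fixed or random factor, chip lot as a fixed factor, the largest lot alone, and leaving out each array, reported for the members only.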

Additional observations from a re-analysis of the deposited data

How the results depend on the processing

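Counts of called members moved by over 1.5 times in few settings. With scan day as a fixed factor 34 members differed among the 8 days (55 without it), 10 were called on day 0 relative to day -2 (35), 8 on day 2 relative to day 0 (15) and 3 on day 10 relative to day 2 (18), while 39 (47) were called on day 10 relative to day -2. Within the largest chip lot, which holds 1 array of day 10, 8 were called on day 10 relative to day 2. Leaving out 1 array gave 52 to 57 members differing among the days, 30 to 36 called on day 0 relative to day -2, 13 to 16 on day 2 relative to day 0, 9 to 19 on day 10 relative to day 2 and 43 to 48 on day 10 relative to day -2. No called change of a named member reversed in any of these settings. Of 93 calls among 188 tests of 47 named member probe sets, 47 held in every setting. Replicate numbers did not pair the arrays: deviations from the day means correlated at a mean of 0.033 for the same number and -0.017 for different numbers. With the replicate number as a block the counts were 58, 37, 17, 19 and 48 in the order above. The causes were not tested. Values near the floor, as for Calr and Dnajb5, limit what can be said of low members.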
